A study of Mus musculus with 12 samples.

Results

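The genes described here are the tumour necrosis factor (TNF) ligands, their receptors and the adaptor proteins that bind the receptors inside the cell. Members were taken by gene symbol alone, as every listed Tnfsf and Tnfrsf gene together with Tnf, Lta, Ltb, Ltbr, Cd27, Cd40, Fas, Eda, Edar, Eda2r, Edaradd, Relt, Ngfr, Traf1, Traf2, Traf3, Traf5 and Traf6. This gave 45 of the 14533 genes in the deposited count table. Traf4 was not taken as a member and is among the receptor-proximal signalling genes below. The table had kept genes above 0.5 counts per 1000000 counts of the library (CPM) in at least 6 mice, and 45 of the 52 family genes looked for were in it. The ligands Tnfsf4, Cd40lg, Fasl, Cd70 and Tnfsf11 and the receptors Tnfrsf8 and Tnfrsf17 were not listed, so their levels were not analysed here.

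RNA was sequenced from scrapings of non-lesional, untreated dorsal epidermis of 12 C57BL/6 mice, with 1 library a mouse. The 6 wildtype (WT) mice were Pparg flox/flox with Cytokeratin14 promoter-driven Cre-/-, and the 6 Pparg-/-epi mice were Pparg flox/flox with Cre+/-, so both groups carry the floxed alleles and the Cre driver confines deletion to cells with a keratin 14 history, which include the hair follicle and sebaceous gland. The WT group held 3 females and 3 males, and the Pparg-/-epi group 4 females and 2 males, all between 8 and 13 weeks old. Scraping went down to the subepidermal vessels, so the samples hold some superficial dermis and the immune cells of both layers.

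TNF family ligands are mostly trimeric membrane proteins that can be shed, and their receptors recruit TRAF adaptors or, where they carry a death domain, the adaptors of cell death. Signals through TRAF proteins feed the NF-kB and stress kinase pathways, while decoy receptors bind ligand without passing a signal on. In skin the family is known for TNF-driven inflammation of keratinocytes, for T cell costimulation, and for the ectodysplasin pathway that builds hair follicles and glands.

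Pparg itself, counted over the whole gene although Cre removes only part of it, ran from 0.533 through 2.39 to 14.3 CPM in WT and from 1.33 through 4.05 to 6.49 CPM in Pparg-/-epi mice, so its counts do not check the genotype labels. Total counts per library lay between 10120840 and 18851255 and did not separate the groups (exact permutation test, p = 0.965). RNA integrity number averaged 6.88 ± 1.03 (SD, n = 6) in WT and 7.55 ± 1.07 (SD, n = 6) in Pparg-/-epi mice (exact permutation test, p = 0.310). Among the WT mice, mouse 2 stood apart, with a summed macrophage marker level of 830 CPM against a WT median of 183 and the lowest keratinocyte marker level, 17172 CPM. Other WT mice stood apart in other lists. Mouse 1 had a fibroblast marker sum of 34614 CPM against a WT median of 7796. For mouse 5 the adipocyte and muscle sum was 7734 CPM against a WT median of 113. In addition, 4 of the 6 WT mice bear the number 226 in their names, which no Pparg-/-epi mouse bears, so whatever that number stands for and the genotype cannot be told apart in those mice. The numbers 217 in WT mice and 192, 195 and 225 in Pparg-/-epi mice likewise occur in a single genotype. Of 7 keratinocyte markers, with sums of 17172 to 41817 CPM in WT and of 28033 to 49473 CPM in Pparg-/-epi mice, 1 rose, Krt14, and the most abundant of them, Krt10, averaged 18423 CPM in WT against 18226 CPM in Pparg-/-epi mice.

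To show the sequence around annotated start sites of the genes that follow, RefSeq promoters were searched on both strands (250 bases before to 50 after the start, build GRCm38.p6). The search was for the kappaB consensus, for TGANTCA, which covers the AP-1 element, and for AGGTCA, the core repeat recognised by nuclear receptors such as PPARγ. A promoter was matched by symbol for 38 of the 45 members, and 13 of these belong to the 15 altered genes described next. The sequences printed are those of the altered members that hold any of these matches, with the matched bases in capitals, and a match on the opposite strand appears as its reverse complement and each sequence given 5′ to 3′ on the strand of its gene.
Tnfrsf9, chr4:150927749-150928048, plus strand: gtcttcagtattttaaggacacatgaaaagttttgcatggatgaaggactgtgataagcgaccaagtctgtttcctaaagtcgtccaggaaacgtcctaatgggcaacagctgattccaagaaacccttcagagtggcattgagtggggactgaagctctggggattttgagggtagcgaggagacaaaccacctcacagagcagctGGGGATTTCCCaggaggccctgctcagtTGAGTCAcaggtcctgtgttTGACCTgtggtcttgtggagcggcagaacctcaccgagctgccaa
Tnfsf13, chr11:69685505-69685804, minus strand: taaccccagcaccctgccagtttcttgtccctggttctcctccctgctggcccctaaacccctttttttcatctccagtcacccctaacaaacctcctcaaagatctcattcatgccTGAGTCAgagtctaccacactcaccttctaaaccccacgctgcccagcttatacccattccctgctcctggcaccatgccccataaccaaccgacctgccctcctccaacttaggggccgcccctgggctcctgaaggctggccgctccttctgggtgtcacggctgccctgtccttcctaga
Fas, chr19:34290409-34290708, plus strand: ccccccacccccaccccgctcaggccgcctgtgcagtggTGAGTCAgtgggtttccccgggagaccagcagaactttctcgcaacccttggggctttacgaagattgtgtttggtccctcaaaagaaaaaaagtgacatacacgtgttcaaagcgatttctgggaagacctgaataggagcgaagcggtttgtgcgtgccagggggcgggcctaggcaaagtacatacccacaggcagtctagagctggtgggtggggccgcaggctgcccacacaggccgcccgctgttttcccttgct
The Tnfrsf9 window lies inside the counted gene, which begins at chr4:150920155, and so belongs to a start site within it. Counted from that site, the window held overlapping kappaB matches from -43 to -33 and a TGANTCA match from -15 to -9. An AGGTCA match lay on the opposite strand from 5 to 10. Among the altered members with a promoter Tnfrsf9 was the single one with a kappaB match, and Ltb and Traf3 were the other members with one. A kappaB match stood in 3 of the 42 member promoters and in 4.51% of all 32851 promoters, and a TGANTCA match in 6 of 42 and in 7.81% of all. AGGTCA stood in 5 of the 42 and in 16.3% of all, among them that of Tnfrsf9. The letters are a description of these windows and no binding was measured.

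Of the 45 members, 8 were higher and 7 lower in Pparg-/-epi than in WT skin. A gene counted as altered where its log2 fold change reached 0.6 in either direction, with a Benjamini-Hochberg adjusted p under 0.05 over all genes (edgeR quasi-likelihood test). By that rule 10.3% of all 14533 genes were altered, 5.19% higher and 5.08% lower. Altered members were therefore 33.3% of the family. The 2 genotypes did not overlap in 11 of the 45 members, against 7.9% of all genes. Tnfsf13 and Tnfsf9, which are among both the higher and the separated members, met the table's 0.5 CPM filter only with the Pparg-/-epi mice. Their call and separation were therefore favoured by that filter. The median log2 fold change was 0.10 over the members and -0.01 over all genes.

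By role, the ligands had 4 higher and 1 lower gene among 13, with a median log2 fold change of 0.53. Death domain receptors had 0 higher and 3 lower among 7, with a median of -0.71. The TRAF-binding receptors had 3 higher and 1 lower among 15, the decoy receptors 0 higher and 1 lower among 4, and the adaptors 1 of each among 6. These counts per role are small and no test of a difference between roles was made.

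**Figure D1:**
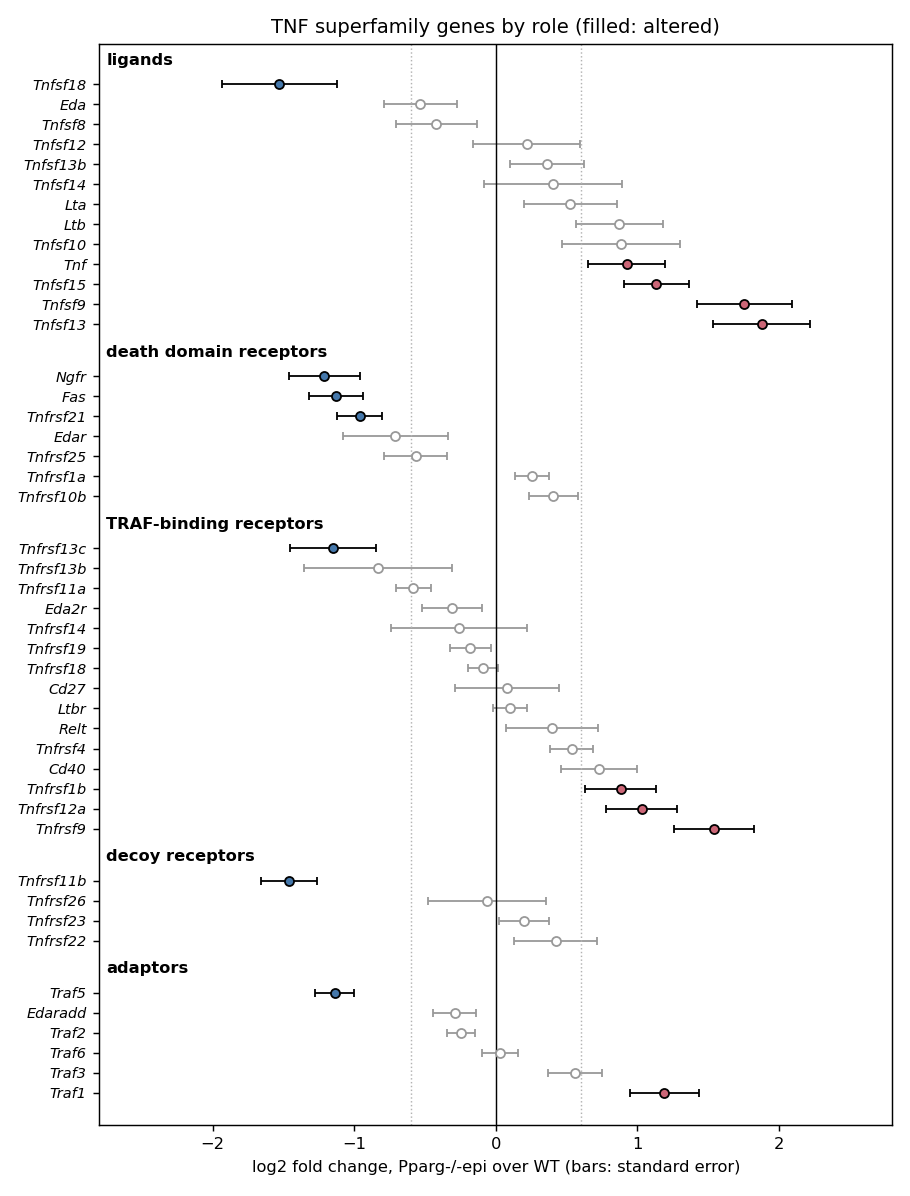
Log2 fold change of each of the 45 members, Pparg-/-epi over WT, grouped by role, with bars for the standard error and dotted lines at an absolute value of 0.6. Filled points mark the 15 altered members, 8 to the right of zero and 7 to the left, with Tnfsf13 farthest right at 1.88 and Tnfsf18 farthest left at -1.53.

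The calls rested on all 12 mice. With females alone 0 members were altered upward and 4 downward, and with only the 2 WT mice outside name number 226 the counts were 0 and 2. At an unadjusted p under 0.05, 12 members were higher and 8 lower with females alone, against 10.8% and 12.6% of all genes. With those 2 WT mice 8 members were higher and 9 lower at that threshold, against 9.37% and 9.29% of all genes. All 15 altered members kept their direction in both. Leaving out WT mouse 2 raised the count of higher members from 8 to 12 and that of all genes from 754 to 1303, or 8.97%.

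Among the ligands, Tnfsf13 (chr11:69682577-69685554), which encodes APRIL, a B cell and plasma cell survival factor, had the largest fold change. Its lowest, median and highest levels were 0.189, 0.551 and 0.767 CPM in the 6 WT mice and 1.37, 1.85 and 2.74 CPM in the 6 Pparg-/-epi mice. Every Pparg-/-epi mouse was above every WT mouse. The difference was a log2 fold change of 1.88 (SE 0.34, adjusted p = 0.0034), or 3.67-fold, on 3 to 13 counts a mouse in WT. Of the 75-base stretches of Tnfsf13, 55.7% also occur in the readthrough transcript Tnfsfm13 that runs in from the neighbouring Tnfsf12, so the split of reads between these genes is uncertain. Tnfsf12 itself, which encodes TWEAK, had a log2 fold change of 0.22 (SE 0.38).

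Tnfsf9 (chr17:57105385-57107757) encodes 4-1BBL, the costimulatory ligand of the receptor Tnfrsf9. It measured 0.320, 0.444 and 1.06 CPM at its lowest, median and highest in WT and 1.12, 2.07 and 2.29 CPM in Pparg-/-epi mice. The groups did not overlap, although WT mouse 2 came close to the lowest Pparg-/-epi mouse. Its log2 fold change was 1.75 (SE 0.34, adjusted p = 0.0046), from 3 to 20 counts a mouse in WT. Every WT mouse but mouse 2 lay under the table's 0.5 CPM filter, so Tnfsf9 was listed through the Pparg-/-epi mice.

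Tnfsf15 (chr4:63724603-63745113) encodes TL1A, a ligand for the death domain receptor Tnfrsf25. Levels ran from 4.24 through a median of 5.18 to 7.46 CPM in WT and from 7.03 through 11.6 to 17.9 CPM in Pparg-/-epi mice. The groups overlapped by the lowest Pparg-/-epi mouse, mouse 8, and the other 5 lay above all WT mice. Tnfsf15 rose by a log2 fold change of 1.13 (SE 0.23, adjusted p = 0.0061).

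Tnf (chr17:35199367-35202007), the name-giving inflammatory cytokine, measured 1.79, 2.79 and 4.03 CPM at its lowest, median and highest in WT and 3.75, 5.00 and 9.71 CPM in Pparg-/-epi mice. The groups overlapped, 4 of the 6 Pparg-/-epi mice lay above every WT mouse, and mouse 12 stood far above the rest. The log2 fold change was 0.92 (SE 0.27, adjusted p = 0.0381). This call was not stable: it was lost when any of 8 of the 12 mice was left out, namely WT mice 1, 3, 4 and 6 and Pparg-/-epi mice 9 to 12, with adjusted p up to 0.0739. Without mouse 12 the log2 fold change was 0.69.

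Tnfsf18 (chr1:161494657-161505290), which encodes GITRL, was the ligand that fell. It ran from 2.18 through a median of 2.70 to 5.97 CPM in WT and from 0.546 through 0.874 to 2.53 CPM in Pparg-/-epi mice. Of the Pparg-/-epi mice, 5 lay below every WT mouse and mouse 11 lay within their range. The log2 fold change was -1.53 (SE 0.41, adjusted p = 0.0237), and the call was lost without WT mouse 3 or 4 or Pparg-/-epi mouse 7 or 9, with adjusted p up to 0.0555.

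The remaining 8 ligands were not called. Tnfsf10, which encodes the death ligand TRAIL, measured 2.68, 3.15 and 8.76 CPM at its lowest, median and highest in WT and 2.15, 6.66 and 14.3 CPM in Pparg-/-epi mice, at a log2 fold change of 0.88 (SE 0.42, adjusted p = 0.181). For Ltb, the membrane partner of lymphotoxin, the levels were 0.944, 1.70 and 2.71 CPM against 1.89, 2.91 and 4.88 CPM, with a log2 fold change of 0.87 (SE 0.31, adjusted p = 0.0742). The groups overlapped for both genes, and both passed the call without WT mouse 2, at adjusted p = 0.0348 for Tnfsf10 and 0.0318 for Ltb. The other 6, Lta, Tnfsf14, Tnfsf13b, Tnfsf12, Tnfsf8 and Eda, had log2 fold changes between -0.53 and 0.53.

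**Figure D2:**
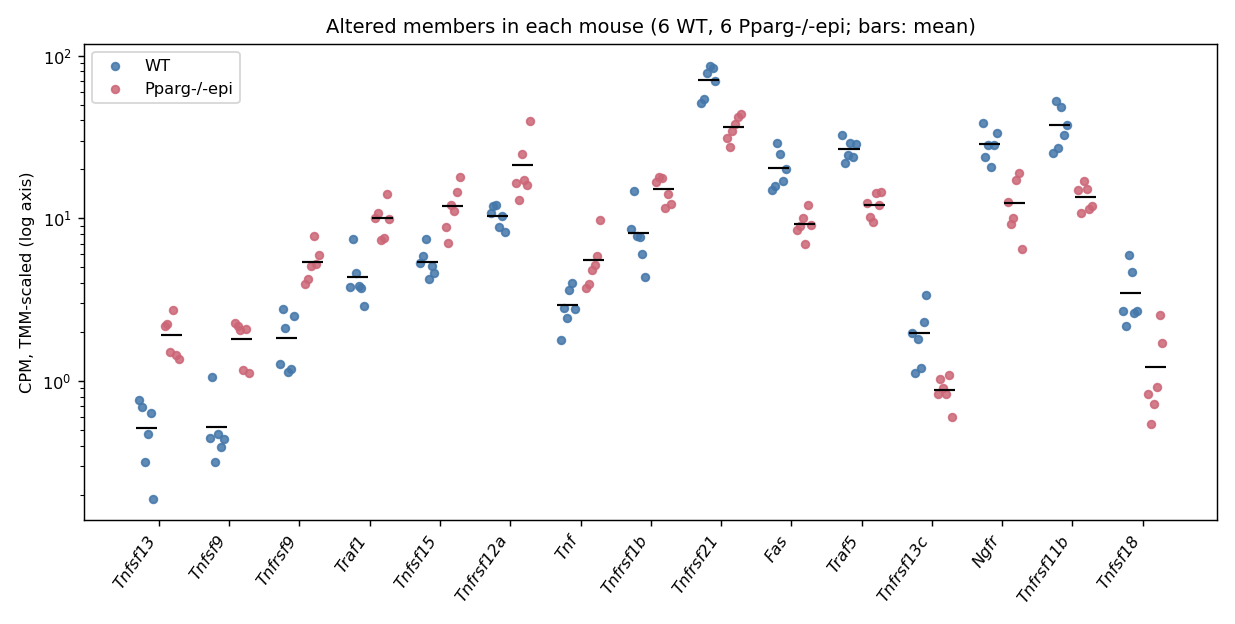
CPM (log axis) of the 15 altered members in each of the 12 mice, with WT in blue, Pparg-/-epi in red and a black bar at each group mean. The 2 groups are apart in Tnfsf13, Tnfsf9, Tnfrsf9, Tnfrsf12a and in all falling genes but Tnfsf18, though narrowly in Tnfsf9 and Tnfrsf13c. They mingle in Traf1, Tnfsf15, Tnf and Tnfrsf1b.

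Among the death domain receptors, Tnfrsf1a, the main TNF receptor of most cells, measured 152, 173 and 229 CPM at its lowest, median and highest in WT and 173, 212 and 269 CPM in Pparg-/-epi mice. The groups overlapped, and the log2 fold change of 0.26 (SE 0.12, adjusted p = 0.176) was not called.

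Fas (chr19:34290659-34327770), the receptor that triggers apoptosis on binding Fas ligand, fell. It ran from 15 through a median of 18.6 to 29.0 CPM in WT and from 6.90 through 9.04 to 12.1 CPM in Pparg-/-epi mice. Every Pparg-/-epi mouse was below every WT mouse, with a log2 fold change of -1.13 (SE 0.19, adjusted p = 0.0022). Fas ligand itself was not listed.

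Tnfrsf21 (chr17:43016555-43089188), known as death receptor 6, ran from 51 through 73.9 to 86.7 CPM in WT and from 27.5 through 36.3 to 44.1 CPM in Pparg-/-epi mice. The groups were apart and the log2 fold change was -0.96 (SE 0.16, adjusted p = 0.0020).

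Ngfr (chr11:95568821-95587698) encodes the p75 neurotrophin receptor, which binds growth factors outside the TNF family. It ran from 20.6 through 28.1 to 38.4 CPM in WT and from 6.44 through 11.3 to 19.0 CPM in Pparg-/-epi mice. The groups were apart, with a log2 fold change of -1.21 (SE 0.25, adjusted p = 0.0065). Schwann cells also express Ngfr, and of 9 Schwann cell and melanocyte markers, with summed levels of 105 to 168 CPM in WT against 72.4 to 252 CPM in Pparg-/-epi mice, 1 was altered, Mbp, at a log2 fold change of -0.63 (SE 0.08, adjusted p = 0.00047). The part of these cells in the Ngfr difference was not tested.

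Edar, the ectodysplasin receptor, was among the lowest members per length. It measured 0.553, 0.950 and 1.59 CPM at its lowest, median and highest in WT and 0.303, 0.577 and 1.27 CPM in Pparg-/-epi mice, at a log2 fold change of -0.71 (SE 0.37, adjusted p = 0.230). Tnfrsf25 and Tnfrsf10b, the receptors for TL1A and TRAIL, had log2 fold changes of -0.57 (SE 0.22, adjusted p = 0.110) and 0.40 (SE 0.17, adjusted p = 0.140). All 3 overlapped between the groups. Tnfrsf25 passed the call without WT mouse 5, at a log2 fold change of -0.69 (adjusted p = 0.0418).

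Among the receptors that bind TRAF proteins without a death domain, Tnfrsf9 (chr4:150920155-150946102), the 4-1BB costimulatory receptor of activated lymphocytes, changed most. It ran from 1.14 through 1.70 to 2.76 CPM in WT and from 3.95 through 5.17 to 7.74 CPM in Pparg-/-epi mice. No mice overlapped, and the log2 fold change was 1.54 (SE 0.28, adjusted p = 0.0037). Tnfrsf9 is the gene whose printed promoter window, at a start site inside the gene, held kappaB, TGANTCA and AGGTCA matches.

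Tnfrsf12a (chr17:23675445-23677449) encodes Fn14, the TWEAK receptor, which is induced on growth and injury. It ran from 8.25 through 10.6 to 12.0 CPM in WT and from 13.0 through 16.8 to 39.8 CPM in Pparg-/-epi mice. The groups were apart and mouse 12 was the highest. The log2 fold change was 1.03 (SE 0.25, adjusted p = 0.0152) and 0.75 without mouse 12. Tnfrsf12a shares 80 exon bases, 8.29% of its length, with Hcfc1r1 on the opposite strand, and whether counting used strand is not given in the sources used here.

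Tnfrsf1b (chr4:145212368-145246870), the TNF receptor best known on immune and endothelial cells, ran from 4.34 through 7.72 to 14.6 CPM in WT and from 11.6 through 15.3 to 18 CPM in Pparg-/-epi mice. The groups overlapped because of WT mouse 2, the highest WT mouse. The log2 fold change was 0.88 (SE 0.25, adjusted p = 0.0329), and the call was lost on leaving out any of 9 mice, WT mice 1, 3, 4, 5 and 6 and Pparg-/-epi mice 7, 8, 9 and 11, with adjusted p up to 0.0812. Without WT mouse 2 the log2 fold change was 1.12.

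Tnfrsf13c (chr15:82221744-82224336), the BAFF receptor of B cells, fell. It ran from 1.11 through 1.90 to 3.40 CPM in WT and from 0.601 through 0.870 to 1.09 CPM in Pparg-/-epi mice, on 7 to 17 counts a mouse in the latter. The groups were apart only narrowly, with the lowest WT mouse at 1.11 CPM and the highest Pparg-/-epi mouse at 1.09 CPM. The log2 fold change was -1.15 (SE 0.30, adjusted p = 0.0226), and the call was lost without WT mouse 6 or Pparg-/-epi mouse 7. Blk, a kinase gene of B cells, had levels of 0.107 to 1.22 CPM in WT against 1.99 to 3.58 CPM in Pparg-/-epi mice. It rose by a log2 fold change of 2.56 (SE 0.50, adjusted p = 0.0052). Its WT median was 0.281 CPM, and it met the table's 0.5 CPM filter only with the Pparg-/-epi mice.

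Tnfrsf11a, the RANK receptor, and Tnfrsf4, the OX40 receptor, passed the adjusted p and not the fold. Tnfrsf11a ran from 21.8 through 25.5 to 31.7 CPM in WT and from 14.5 through 16.4 to 21.2 CPM in Pparg-/-epi mice, without overlap, at a log2 fold change of -0.58 (SE 0.12, adjusted p = 0.0078). Tnfrsf4 ran from 7.99 through 9.95 to 13.0 CPM and from 11.1 through 14.5 to 17.0 CPM, with overlap, at 0.53 (SE 0.15, adjusted p = 0.0318). Tnfrsf18, the GITR receptor next to Tnfrsf4 on chromosome 4, lay within the WT range in all Pparg-/-epi mice, at -0.09 (SE 0.10, adjusted p = 0.613). Tnfrsf11a passed the fold as well on leaving out WT mouse 1 or 2 or Pparg-/-epi mouse 10 or 11, and Tnfrsf4 on leaving out WT mouse 3.

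Cd40, the receptor for help from T cells, had a log2 fold change of 0.73 (SE 0.27, adjusted p = 0.0853), from 1.11, 1.60 and 2.92 CPM at its lowest, median and highest in WT to 2.08, 2.97 and 3.62 CPM in Pparg-/-epi mice. Tnfrsf13b, the TACI receptor, had -0.83 (SE 0.52, adjusted p = 0.320), from 0.474, 0.815 and 2.18 CPM to 0.0859, 0.498 and 1.25 CPM. Both overlapped between the groups. Without WT mouse 2, Cd40 passed the call (adjusted p = 0.0167). The remaining 6 receptors of this role, Eda2r, Tnfrsf14, Tnfrsf19, Cd27, Ltbr and Relt, lay between a log2 fold change of -0.31 and 0.40.

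Of the decoy receptors, Tnfrsf11b (chr15:54250619-54278484), which encodes osteoprotegerin, the soluble decoy for RANK ligand, fell. It ran from 25.2 through 34.9 to 52.6 CPM in WT and from 10.7 through 13.4 to 17.0 CPM in Pparg-/-epi mice. Every Pparg-/-epi mouse was below every WT mouse, with a log2 fold change of -1.46 (SE 0.20, adjusted p = 0.00067). RANK ligand, Tnfsf11, was not listed. Tnfrsf22, Tnfrsf23 and Tnfrsf26, neighbours on chromosome 7, had log2 fold changes of 0.42, 0.20 and -0.06, and 20.8% of the 75-base stretches of Tnfrsf22 occur elsewhere in annotated transcripts, Tnfrsf23 included.

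Of the 6 adaptors 1 rose and 1 fell. Traf1 (chr2:34943258-34961772), an adaptor that NF-kB itself induces, ran from 2.90 through 3.8 to 7.43 CPM in WT and from 7.33 through 9.98 to 14.2 CPM in Pparg-/-epi mice. WT mouse 2 alone reached the lowest Pparg-/-epi mouse, and the log2 fold change was 1.19 (SE 0.24, adjusted p = 0.0065). Traf5 (chr1:191997203-192092599), an adaptor for CD40 and lymphotoxin beta receptor signals, ran from 22.0 through 26.5 to 32.4 CPM in WT and from 9.45 through 12.2 to 14.5 CPM in Pparg-/-epi mice. It was apart in all mice, with a log2 fold change of -1.14 (SE 0.14) and the smallest adjusted p of the family, 0.000345.

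Traf3, a brake on alternative NF-kB signalling, had a log2 fold change of 0.56 (SE 0.19, adjusted p = 0.0644), and Traf2, Traf6 and Edaradd lay between -0.29 and 0.03. Traf3 passed the call without WT mouse 2 (0.65, adjusted p = 0.0264) or without Pparg-/-epi mouse 12 (0.63, adjusted p = 0.0488). Traf6, the adaptor shared with interleukin-1 receptors, was the most abundant adaptor, at 121 CPM (median, WT) and 130 CPM (median, Pparg-/-epi).

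Per transcript length, receptors and adaptors held the highest levels, and the highest ligand in WT skin was Tnfsf12 at 3.02 ± 1.90 CPM per kb (SD, n = 6). In WT skin Tnfrsf1a was highest at 83.0 ± 12.7 CPM per kb (SD, n = 6), followed by Tnfrsf19 at 45.1 ± 9.28, and these did not overlap within 1 SD. Tnfrsf18 at 28.5 ± 4.09, Ltbr at 28.0 ± 5.19, Traf6 at 20.0 ± 3.53 and Tnfrsf21 at 19.5 ± 4.17 CPM per kb came next, and neither the first pair nor the second pair of these could be separated by their spread. At the low end were Tnfsf13 at 0.305 ± 0.134 and Edar at 0.289 ± 0.105 CPM per kb, which could not be separated either. In Pparg-/-epi skin Tnfrsf1a remained first, at 99.2 ± 14.5 CPM per kb, and Tnfsf13 stood at 1.14 ± 0.331.

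**Figure D3:**
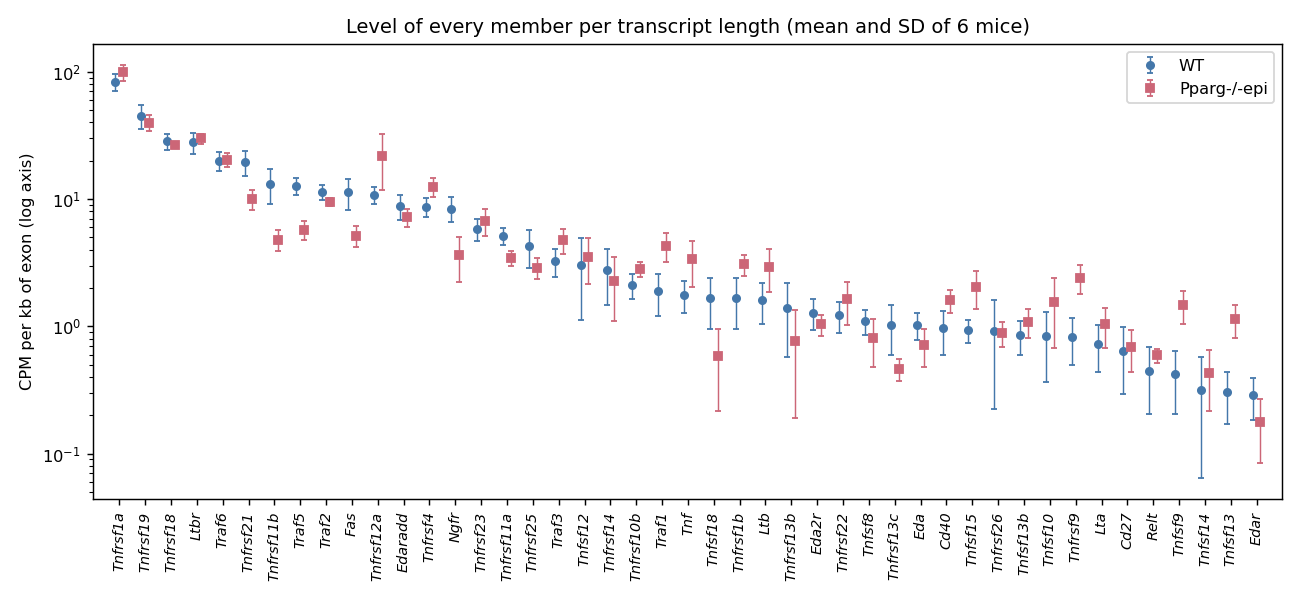
Level of each member in CPM per kb of exon (log axis), with points for the mean of 6 WT mice (blue circles) and 6 Pparg-/-epi mice (red squares), bars for the SD, and genes ordered by their WT level. Tnfrsf1a leads at 83.0 CPM per kb in WT and Edar is last at 0.289, and Tnfsf13, Tnfsf9 and Tnfrsf9 on the right show red points well above blue.

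Ligands and their receptors were then set side by side in 17 known pairs. In 2 pairs both genes were higher, Tnf with Tnfrsf1b and Tnfsf9 with Tnfrsf9. The Tnf call was lost in 8 and the Tnfrsf1b call in 9 of the 12 fits that left out a mouse. Tnfsf9 met the table's 0.5 CPM filter only with the Pparg-/-epi mice, which favoured its call. In 3 pairs the ligand was higher and the receptor was not altered, in 1 the ligand was lower and the receptor not altered, in 2 the receptor was higher alone, in 1 the receptor was lower alone, and in 8 neither was altered. Pairs share genes and are not independent. Tnfsf18 fell by 1.53 on the log2 scale while its receptor Tnfrsf18 had -0.09, and Tnfsf15 had 1.13 against -0.57 for Tnfrsf25.

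**Figure D4:**
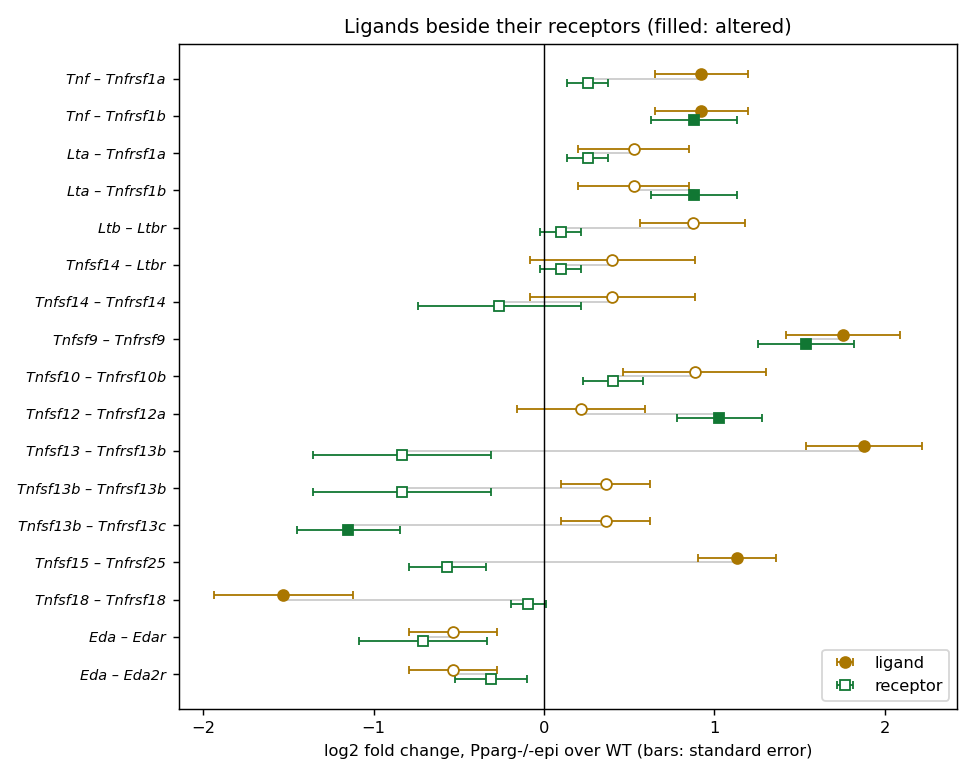
Log2 fold change, Pparg-/-epi over WT, of the ligand (circles) and the receptor (squares) in each of 17 pairs, with bars for the standard error and filled symbols for altered genes. Both symbols are filled in 2 pairs, Tnf with Tnfrsf1b, whose calls were not stable, and Tnfsf9 with Tnfrsf9. The symbols lie farthest apart for Tnfsf13 with Tnfrsf13b.

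To compare members within a mouse, which removes library size, the log2 ratio of counts was taken for 3 pairs, with an exact permutation test over the 924 splits of 12 mice, whose smallest possible p is 0.00216, and adjustment over the 3 ratios. Tnfsf13 over Tnfsf13b, the ligands that share the receptor Tnfrsf13b, was -1.5 ± 0.68 (SD, n = 6) in WT and 0.04 ± 0.58 (SD, n = 6) in Pparg-/-epi mice, a difference of 1.55 (exact permutation test, two-sided, p = 0.00216, adjusted p = 0.0065). The groups were apart, by a narrow margin. Tnfsf13 met the table's 0.5 CPM filter only with the Pparg-/-epi mice, so this difference, its p and the separation were favoured by that filter. The ratio therefore adds no separate support for the Tnfsf13 rise. Its reads are also uncertain because of the readthrough transcript with Tnfsf12. Tnfrsf11b over Tnfrsf11a, decoy over receptor for the same ligand, was 0.48 ± 0.46 in WT and -0.36 ± 0.39 in Pparg-/-epi mice, a difference of -0.85 (exact permutation test, p = 0.0065, adjusted p = 0.0097). Tnfrsf1b over Tnfrsf1a was -4.53 ± 0.72 in WT and -3.83 ± 0.44 in Pparg-/-epi mice, and the difference of 0.70 missed the threshold (exact permutation test, p = 0.0736, adjusted p = 0.0736). Without WT mouse 2 it was 0.93 (exact permutation test, adjusted p = 0.0130), and without Pparg-/-epi mouse 12 it was 0.82 (exact permutation test, adjusted p = 0.0498).

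**Figure D5:**
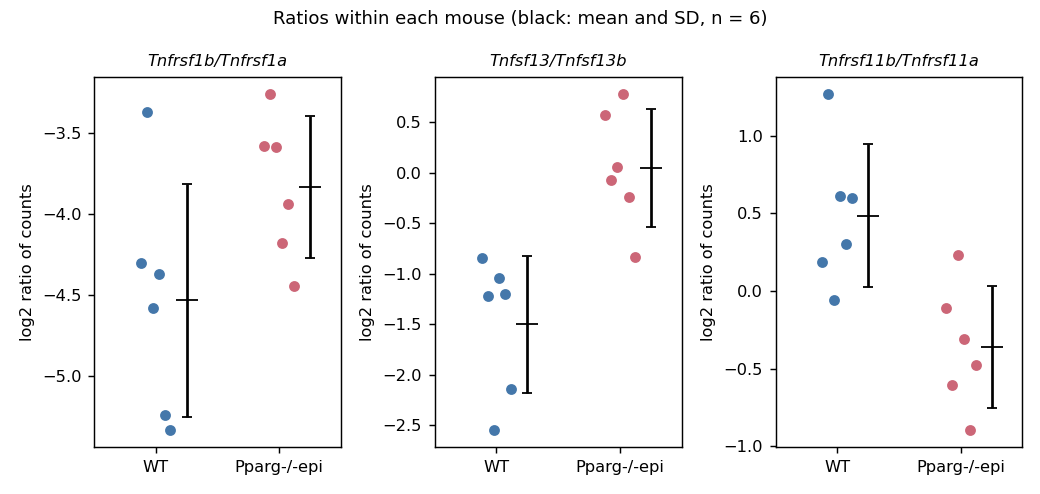
Log2 ratio of counts of 2 members within each mouse, for Tnfrsf1b over Tnfrsf1a, Tnfsf13 over Tnfsf13b and Tnfrsf11b over Tnfrsf11a, with WT in blue, Pparg-/-epi in red and black bars for the mean and SD of 6 mice. For Tnfrsf1b over Tnfrsf1a WT mouse 2 sits at -3.37, within the Pparg-/-epi points, and WT mice 1 and 4, at -4.30 and -4.37, also lie above the lowest Pparg-/-epi point at -4.45.

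Whether the genotype difference itself depended on sex was tested by an interaction term. Of the 45 members 0 passed an adjusted p under 0.05 (edgeR quasi-likelihood test). At an unadjusted p under 0.05 there was 1, Tnfrsf11b, with log2 fold changes of -1.77 in females and -1.07 in males, a difference of 0.70 (SE 0.30, adjusted p = 0.895). Over all genes 0 passed the adjusted threshold and 741 the unadjusted one. The Pparg-/-epi group held 2 males.

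Several members lie side by side on a chromosome, and the differences between such neighbours were not tested. On chromosome 17 Tnf had a log2 fold change of 0.92 (SE 0.27), close to that of Ltb on one side, 0.87 (SE 0.31), and Lta on the other had 0.53 (SE 0.33). Tnfsf15 had 1.13 (SE 0.23), and Tnfsf8 beside it on chromosome 4 had -0.42 (SE 0.28). The chromosome 6 receptors Tnfrsf1a, Ltbr and Cd27 had log2 fold changes of 0.26, 0.10 and 0.08.

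Genes downstream of the receptors were read from 3 lists. Of 38 receptor-proximal signalling genes 4 were higher and 0 lower, with a median log2 fold change of -0.01. These 4 are 10.5% of the list, close to the 10.3% of all genes altered. Ripk3, the kinase of necroptosis, rose from a median of 5.73 to 10.3 CPM (log2 fold change 0.82, SE 0.17, adjusted p = 0.0077), Tnip1, an inhibitor of NF-kB signalling, from 39.9 to 69.4 CPM (0.66, SE 0.14, adjusted p = 0.0076), and Map3k14, the NF-kB inducing kinase, from 15.4 to 31.0 CPM (0.87, SE 0.23, adjusted p = 0.0216). Mlkl, the necroptosis effector below Ripk3, was the other gene that rose.

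Of 11 NF-kB subunits and inhibitors 4 were higher and 0 lower, or 36.4% altered, with a median log2 fold change of 0.33. Bcl3, a nuclear member of the inhibitor family, rose from a median of 7.62 to 24.6 CPM (log2 fold change 1.91, SE 0.30, adjusted p = 0.0013), and Nfkb2, the subunit of the alternative pathway, from 34.7 to 53.4 CPM (0.63, SE 0.11, adjusted p = 0.0034), both without overlap. Nfkbiz, another nuclear inhibitor family gene, rose from 76.5 to 112 CPM with overlap (0.62, SE 0.15, adjusted p = 0.0143), and Nfkbid was the other gene that rose. The subunits Rela, Relb, Rel and Nfkb1 were not called.

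Of 32 genes known to respond to TNF 26 were listed, of which 7 were higher and 1 lower, or 30.8% altered, with a median log2 fold change of 0.62. Bcl2a1d, a survival gene of the BCL2 family, rose from a median of 0.433 to 2.58 CPM (log2 fold change 2.34, SE 0.30, adjusted p = 0.00041), Tnfaip2 from 19.5 to 34.3 CPM (0.86, SE 0.15, adjusted p = 0.0022) and Ier3, an immediate early gene, from 13.3 to 36.7 CPM (1.5, SE 0.25, adjusted p = 0.0022), all 3 without overlap. Mmp9, a matrix protease, fell from a median of 31.7 to 14.9 CPM (log2 fold change -1.0, SE 0.19, adjusted p = 0.0039). Bcl2a1d belongs to a family of near-identical copies, so its count is uncertain. It also met the table's 0.5 CPM filter only with the Pparg-/-epi mice.

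The scrapings hold several cell types, and in such bulk RNA fewer cells of a type and less RNA per cell cannot be told apart. All 6 listed mast cell markers of 7 rose, with summed levels of 20.0 to 95.3 CPM in WT against 136 to 246 CPM in Pparg-/-epi mice. Mcpt4, a mast cell protease, was the most abundant, and Tpsab1 was not listed. Of 4 listed neutrophil markers of 7, 3 rose, with sums of 2.14 to 13.3 CPM and 37.8 to 54.0 CPM. S100a9 was the most abundant and Ly6g, Mpo and Retnlg were not listed. The study describes S100a9 and S100a8, also on this list, as alarmins. Its histology of non-lesional skin showed no significant inflammatory infiltrate. The cells that gave these reads were not tested. Cxcr2, another of the 3, had 0 counts in a WT mouse and met the table's 0.5 CPM filter only with the Pparg-/-epi mice. Of 9 listed epidermal T cell markers of 11, 0 rose and 1 fell, Cd3e, with sums of 217 to 363 CPM and 255 to 332 CPM. Log2 fold changes were negative for 6 of the 9 and positive for 3, with a list median of -0.47. The genes Cd247, Cd3d and Cd3g, at -0.83, -0.53 and -0.47, were not called. Thy1 was the most abundant and Trdc and Tcrg-C1 were not listed.

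The 9 macrophage markers, of which Lyz2 was the most abundant, had 0 altered genes and sums of 94.7 to 830 CPM in WT against 260 to 478 CPM in Pparg-/-epi mice. Of 9 Langerhans or dendritic cell markers 2 rose, Epcam and Ccr7, with sums of 1571 to 3585 CPM and 2131 to 2403 CPM. Log2 fold changes were negative for 5 of the 9 and positive for 4, with a list median of -0.03. Ccr7 had a WT median of 0.389 CPM and met the table's 0.5 CPM filter only with the Pparg-/-epi mice. Of 7 endothelial markers, whose log2 fold changes were all positive, 1 rose, Emcn, with sums of 6.17 to 143 CPM and 36.9 to 223 CPM. In WT mice 3 to 6 the endothelial sums were 6.17 to 37.4 CPM. The sums of the mast cell and neutrophil lists separate the genotypes as the rising Tnfsf13, Tnfsf9, Tnfrsf9 and Tnfrsf12a do. The part of either cell type in those rises was not tested.

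Among structures of the skin, 1 of 12 hair follicle markers fell, Krt15, at a log2 fold change of -1.74, while 8 of the 12 had positive values and the list median was 0.53. The list sum, most of which is Krt15 (WT mean 3370 CPM), was 3044 to 4699 CPM in WT against 957 to 2771 CPM in Pparg-/-epi mice. Of 7 listed sebocyte markers of 9, 5 fell, with sums of 25.1 to 1040 CPM and 20.3 to 58.6 CPM. Scd3 was the most abundant in WT and Plin5 and Dgat2l6 were not listed. The 7 fibroblast and the 7 adipocyte and muscle markers had 0 altered genes, with fibroblast sums of 1022 to 34614 CPM in WT against 5363 to 11271 CPM in Pparg-/-epi mice and adipocyte and muscle sums of 15.2 to 7734 CPM and 17.1 to 435 CPM. Krt15 separates the genotypes as the falling Tnfrsf11b, Traf5, Tnfrsf21, Fas and Ngfr do, while the other 11 hair follicle markers were not altered, and the part of follicle cells in those falls was not tested.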

How the data were processed

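RNA from dorsal epidermal scrapings was prepared with a poly(A) kit and sequenced in pairs of 75 bases. Per the study's methods and the submitters' processing notes, reads were aligned with STAR 2.5.2b to mm10 and counted per gene with featureCounts (Subread 1.5.1). The values deposited by the authors are raw counts per gene, without normalization and limited to genes above 0.5 CPM in at least 6 mice. Whether counting used strand is not given in the sources used here. Another 2800 rows of the table were empty and held no counts. Columns were matched to mice by mouse name, and for Pparg-/-epi mice 11 and 12 through the study's supplementary sample sheet.

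Counts were scaled by TMM factors and tested with edgeR 4.0.16 in R 4.3.3 (quasi-likelihood test, genotype as the single term, all 12 mice), with Benjamini-Hochberg adjustment over 14533 genes. The study's own fit was a likelihood ratio test, run here as an alternative. CPM are TMM-scaled, and fold changes are fitted to counts. Standard errors are the log2 fold change over the root of the F statistic. Ratios added 0.5 to each count and used exact permutation tests. The edgeR test was tested on simulated data, as was DESeq2 1.42.0, another alternative. The rest were scaling by total counts or upper quartile, a mean of at least 2 CPM, sex, RIN, age or name-number terms, females alone, the 2 WT mice without name number 226, and leaving out each mouse. Each sample is a separate mouse, the labels do not give litters, and the tests treat all mice as independent. Several mice of a genotype share a name number, such as Pparg-/-epi mice 8 and 9 (195) and 11 and 12 (225). The p-values make no allowance for any effect that such mice share. Precision is limited by 12 libraries of 10120840 to 18851255 counts.

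The members and lists were chosen with earlier results of these data known. All listed members could be named. Values were given for altered members and those whose log2 fold change reached 0.6 in either direction, and Tnf, Tnfrsf1a and Tnfrsf1b always. From each pathway list the 3 altered genes with the smallest p in each direction were taken, and from each marker list the most abundant gene and any gene at or near 0 counts could be named. Tnfrsf11a and Tnfrsf4, which passed the adjusted p alone, the neighbours by position, Mlkl, Nfkbid and the marker genes beside a result were named after their values were seen. The rest of the B cell marker list is not reported here.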

Additional observations from a re-analysis of the deposited data

Results flagged for a closer look

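In each group of 6 mice the gap of the highest or lowest mouse to its nearest neighbour was compared with the range of the group, at Dixon's 95% critical value for 6 samples. This gave 8 flags in 90 groups, and chance flags about 1 in 20 groups. WT mouse 2 gave 4 of them.

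WT mouse 2 was the highest WT mouse for Tnfsf9 at 1.06 CPM (next 0.471), for Traf1 at 7.43 CPM (next 4.58), for Tnfsf10 at 8.76 CPM (next 3.87) and for Cd27 at 2.07 CPM (next 1.08). The same mouse had the highest macrophage marker sum of WT mice, 830 CPM, and its part in these values was not tested. Without it, the log2 fold changes were 2.09 for Tnfsf9, 1.40 for Traf1 and 1.25 for Tnfsf10.

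WT mouse 1 was the highest WT mouse for Tnfrsf26, at 6.65 CPM (next 2.92). Among Pparg-/-epi mice, mouse 12 was the highest for Tnf at 9.71 CPM (next 5.88), mouse 8 was the highest for Tnfsf12 at 10.6 CPM (next 6.19) and the same mouse was the lowest for Traf6 at 97.0 CPM (next 128).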

How the results depend on the processing

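The number of higher members was 8 and of lower members 7. With female mice only these were 0 and 4, and with only the 2 WT mice without name number 226 they were 0 and 2. Genes altered in the whole table numbered 651 with female mice only and 389 with those 2 WT mice, against 1493. Leaving out 1 mouse gave 6 to 12 higher members, 5 to 8 lower members and 1116 to 2249 altered genes, the last without WT mouse 2. The other settings (likelihood ratio test, DESeq2, total counts, upper quartile, a mean of at least 2 CPM, sex, RIN, age and name-number terms) gave 6 to 9 higher and 6 or 7 lower members. Of the 15 altered members 11 kept their call in all 12 fits that left out a mouse, and Tnf, Tnfrsf1b, Tnfsf18 and Tnfrsf13c did not. Tnf was also lost with age as a term, Tnfrsf1b with total counts, and Tnfrsf13c with RIN or name number as a term. Calls were gained by the Tnfrsf4 log2 fold change with RIN (0.64) or name number (0.65) as a term, the Eda log2 fold change with name number (-0.78) and the Ltb log2 fold change with DESeq2 (0.88).

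The log2 ratio of Tnfrsf1b to Tnfrsf1a differed by 0.54 to 0.93 on leaving out 1 mouse. That of Tnfsf13 to Tnfsf13b differed by 1.34 to 1.72 and that of Tnfrsf11b to Tnfrsf11a by -0.96 to -0.69.

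Among members that were not called, the values that changed sign were those of the Tnfrsf18 log2 fold change (0.0066 with name number as 2 blocks, 0.20 with the 2 WT mice), Cd27 (-0.29 in females, -0.33 with the 2 WT mice, -0.11 to 0.41 on leaving out 1 mouse), Traf6 (-0.067 in females, -0.058 without WT mouse 2), Tnfrsf26 (0.72 in females, 0.10 with sex and 0.14 with age as a term, -0.25 to 0.42 on leaving out 1 mouse), the Tnfsf12 log2 fold change (-0.0184 with RIN as a term, -0.59 with the 2 WT mice, -0.045 without Pparg-/-epi mouse 8) and Tnfsf14 (-0.47 with the 2 WT mice). The cause was not tested. The study calls its controls wildtype siblings, but the labels do not say which mice are siblings, so no paired analysis was possible. Of the numbers in mouse names only 222 occurs in both groups (WT mouse 2 and Pparg-/-epi mouse 10). Depth limits the lowest members: Tnfsf13, Tnfsf9 and Tnfsf14 had a WT mouse at 3 counts.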
